A study of Mus musculus with 6 samples.

Results

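The miR-221 and miR-222 cluster was followed in pancreas from a mouse model of acute pancreatitis and its saline control. Its members were the rows of the deposited table named miR-221 or miR-222, which gave 4 mature arms out of 1414 rows in all. Of those rows 1104 carry a mouse miRNA name and 310 are listed as predicted. The series held 6 small RNA libraries of whole pancreas from wild-type C57BL/6 mice, which the labels place at 22-25g. In the treated group (replicates 56, 57 and 59) mice received hourly intraperitoneal injections of caerulein, 7 in all, with lipopolysaccharide (LPS) added to the last, and their treatment label also lists saline. Caerulein is a cholecystokinin analogue that overstimulates the enzyme-secreting acinar cells, and LPS is a bacterial cell wall component. The labels state the dose as 50 mg/kg, a value repeated here as written. Saline mice (replicates 43, 44 and 45) received saline on the same schedule, and tissue was taken 24 hours after the first injection in both groups. Since neither agent was given by itself, the effects of caerulein and of LPS cannot be told apart. The sources used here give neither the age nor the sex of the mice, and do not say that every library came from a separate mouse. P-values therefore describe the scatter among these 6 libraries, part of which may be technical.

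A miRNA gene is transcribed as a hairpin, from which Dicer cuts a duplex of a 5p and a 3p arm, and usually 1 arm is loaded into Argonaute and guides it to target mRNAs through its seed, bases 2 to 8. miR-221 and miR-222 lie side by side and their 3p arms share a seed. In human tumour cells these 3p arms repress the cell-cycle inhibitor p27 (CDKN1B), in human endothelial cells the receptor KIT, and in rat vessels they are linked to smooth muscle proliferation. Target mRNAs were not measured in these libraries.

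The mature arms are shown because they decide which targets are shared, with the seed in capitals and all read 5′ to 3′ from the deposited table.
mmu-miR-221-3p: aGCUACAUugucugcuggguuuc
mmu-miR-222-3p: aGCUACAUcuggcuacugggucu
mmu-miR-221-5p: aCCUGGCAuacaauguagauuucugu
mmu-miR-222-5p: cUCAGUAGccaguguagaucc
The first 8 bases of both 3p arms were identical and 11 of all 23 positions matched, so the sequences differ at 12 positions after the seed. No other row of the table had this seed. The 5p arms each had a seed of their own that no other row held.

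Both hairpins were read from RefSeq on GRCm38.p6, with the mature arms in capitals, to show where each measured arm sits.
Mir221: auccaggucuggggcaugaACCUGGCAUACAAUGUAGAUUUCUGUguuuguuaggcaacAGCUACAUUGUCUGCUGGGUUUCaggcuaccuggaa
Mir222: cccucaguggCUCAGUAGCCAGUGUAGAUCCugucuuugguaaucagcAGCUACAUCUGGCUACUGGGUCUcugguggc
Mir221 lies on chromosome X from 19146294 to 19146388 and Mir222 from 19146893 to 19146971, both on the minus strand with 504 bases between them. The 3p arms occupy 19146307 to 19146329 for miR-221 and 19146901 to 19146923 for miR-222, and the 5p arms 19146344 to 19146369 and 19146941 to 19146961. In GENCODE M21 each hairpin is a single-exon miRNA gene that overlaps 0 other genes. The nearest gene on the same strand was the noncoding Gm14636, whose near edge, its 3′ end, is 10009 bases from Mir222.

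Library totals ran from 2489009 to 3006220 counts in the caerulein and LPS group and from 1943693 to 2629801 in the saline group. Levels are given as CPM, reads per 1000000 counts of a library whose total was adjusted by TMM, a scaling that sets the typical miRNA equal between libraries. A count of 0 allowed up to 3 counts, or 0.896 to 1.80 CPM, a limit that covers counting error only. Intervals of fold changes come from the edgeR fit and include the scatter between libraries. As a check of the pancreas label, all 4 acinar miRNAs (miR-216a-5p, miR-216b-5p, miR-217-5p and miR-148a-3p) were detected, with summed levels of 47798 to 50959 CPM in caerulein and LPS libraries and 55743 to 92561 CPM in saline libraries.

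The cluster was made up almost entirely of its 3p arms, and miR-222-3p was the dominant product in every library. Reads of the 4 arms together numbered 2017, 3799 and 2681 in caerulein and LPS replicates 56, 57 and 59, against 1940, 1398 and 1231 in saline replicates 43, 44 and 45. They took 0.0810%, 0.126% and 0.0929% of all miRNA counts in the caerulein and LPS libraries, against 0.0738%, 0.0587% and 0.0633% in the saline libraries. Every caerulein and LPS library lay above every saline library in this share. The share averaged 0.1001% ± 0.0235 in caerulein and LPS libraries and 0.0653% ± 0.00772 in saline libraries (SD, n = 3 each; two-sided exact permutation p = 0.1, the smallest that 3 libraries against 3 allow; adjusted p = 0.133 over the 4 ratios and shares tested this way). Without caerulein and LPS replicate 57 the difference was 0.0217 percentage points, against 0.0348 with all libraries. The share depends on what the other miRNAs did, as the scaling results further on show.

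**Figure D1:**
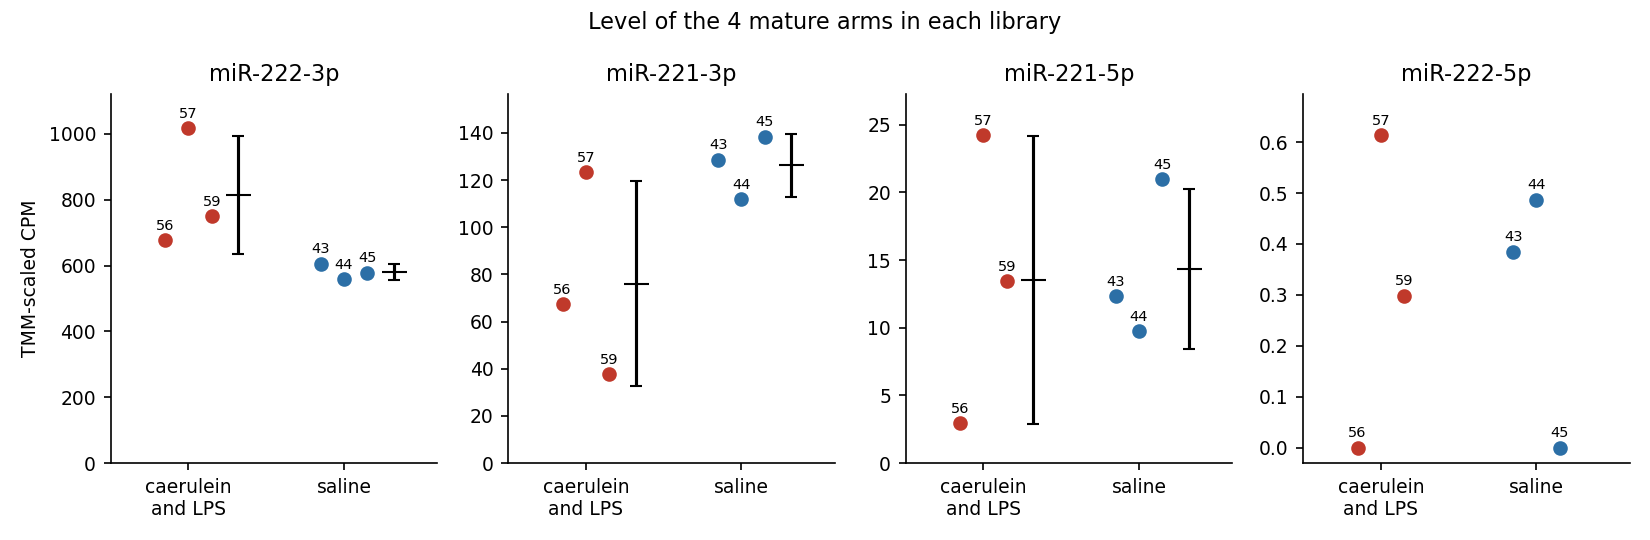
TMM-scaled CPM (y axis, starting at or just below 0) of each mature arm in the 3 caerulein and LPS libraries (red, left) and the 3 saline libraries (blue, right), with replicate numbers beside the points; black marks are the mean and SD, left out for miR-222-5p, whose points stand for 0 to 2 counts. The groups are apart for miR-222-3p, from 677 CPM upward in caerulein and LPS and up to 605 CPM in saline, and overlap for the other arms.

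Among the tested arms miR-222-3p alone had groups that did not overlap, with higher levels in the caerulein and LPS group. It had 1827, 3316 and 2509 counts in caerulein and LPS replicates 56, 57 and 59, against 1573, 1147 and 965 counts in saline replicates 43, 44 and 45. These were 677, 1017 and 749 CPM in caerulein and LPS libraries, against 605, 558 and 578 CPM in saline libraries. The saline libraries lay close together and the caerulein and LPS libraries spread more, replicate 57 being the highest of all and replicate 56 only a little above the saline range. The level averaged 814 ± 179 CPM in caerulein and LPS libraries and 581 ± 23.8 CPM in saline libraries (SD, n = 3 each), 1.40-fold higher with a 95% interval of 0.966 to 2.04. The log2 fold change was 0.49 (SE 0.23) and did not pass the threshold (edgeR adjusted p = 0.244, unadjusted p = 0.0694). By mean level it ranked 109th of the 499 rows tested, just under miR-194-5p at 727 CPM and just above miR-365-3p at 661 CPM over the 6 libraries, and neither of these neighbours passed the test either (edgeR adjusted p = 0.967 and 0.964).

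Its cluster partner miR-221-3p was scarcer, and its mean level was lower in the caerulein and LPS group. Counts were 182, 402 and 126 in caerulein and LPS replicates 56, 57 and 59, against 334, 230 and 231 in saline replicates 43, 44 and 45. On the CPM scale these were 67.4, 123 and 37.6 in caerulein and LPS libraries, against 129, 112 and 138 in saline libraries. Replicates 56 and 59 lay below every saline library and replicate 57 inside the saline range, so the groups overlapped. Mean levels were 76.1 ± 43.5 CPM in caerulein and LPS libraries and 126 ± 13.4 CPM in saline libraries (SD, n = 3 each). The log2 fold change was -0.73 (SE 0.41, 95% interval -1.69 to 0.23; edgeR adjusted p = 0.332). It was -1.24 without caerulein and LPS replicate 57 and -0.37 without replicate 59, so single treated libraries set its size. It ranked 212th, between miR-339-5p at 101 CPM and miR-301a-3p at 99.7 CPM over the 6 libraries (edgeR adjusted p = 0.325 and 0.647).

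The 5p arms, the usual passenger strands of these hairpins, were scarcer still. For miR-221-5p there were 8, 79 and 45 counts in caerulein and LPS replicates 56, 57 and 59, against 32, 20 and 35 in saline replicates 43, 44 and 45. Caerulein and LPS replicate 56, with 2.96 CPM, was the lowest of all libraries and replicate 57, with 24.2 CPM, the highest, on either side of the saline range of 9.73 to 21.0 CPM. Levels averaged 13.5 ± 10.6 CPM in caerulein and LPS libraries and 14.3 ± 5.89 CPM in saline libraries (SD, n = 3 each), a log2 fold change of -0.065 (SE 0.68, 95% interval -1.65 to 1.53; edgeR adjusted p = 0.974). This interval spans more than a doubling in either direction, so a change of that size was not detectable here. This arm ranked 370th, between miR-365-2-5p and miR-1193-3p at 14.0 and 13.8 CPM over the 6 libraries (edgeR adjusted p = 0.170 and 0.829). The other passenger, miR-222-5p, had 0, 2 and 1 counts in caerulein and LPS replicates 56, 57 and 59, against 1, 1 and 0 in saline replicates 43, 44 and 45. All of these were at or under the floor of 3 counts, the arm did not pass the filter on low counts, and no fold is given.

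Of the 4 arms 3 were therefore tested and 0 were called, in a comparison that called 1.20% of the 499 rows (5 higher, 1.00%, and 1 lower, 0.200%, by edgeR's quasi-likelihood test with Benjamini-Hochberg adjustment). At an unadjusted p under 0.05 the count of arms was also 0, where 23.8% of rows passed, and DESeq2 called 0 arms. The groups did not overlap for 1 of the 3 tested arms, against 31.1% of all rows, of which 14.4% were higher and 16.6% lower in the caerulein and LPS group. In mean level the order was miR-222-3p, miR-221-3p, miR-221-5p and miR-222-5p, and it was the same in each of the 6 libraries. The ranges of neighbouring arms in this order did not overlap, although levels of different miRNAs are also shaped by adapter ligation.

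The ratio between both 3p arms needs no scaling between libraries, and its groups did not overlap. There were 10.0, 8.25 and 19.9 reads of miR-222-3p per read of miR-221-3p in caerulein and LPS replicates 56, 57 and 59, against 4.71, 4.99 and 4.18 in saline replicates 43, 44 and 45. Every caerulein and LPS library lay above every saline library, with replicate 59 far above the rest. As a log2 ratio of miR-221-3p to miR-222-3p this was -3.56 ± 0.66 in caerulein and LPS libraries and -2.20 ± 0.13 in saline libraries (SD, n = 3 each). The difference of -1.35 had a two-sided exact permutation p = 0.1, the smallest possible, and an adjusted p = 0.133 over the 4 measures. It was -0.98 without caerulein and LPS replicate 59 and -1.61 without replicate 57. Within the 4 arms, miR-222-3p made up 90.5% ± 3.15 of reads in caerulein and LPS libraries and 80.5% ± 1.89 in saline libraries (SD, n = 3 each). The summed level of both seed-sharing arms was 744, 1140 and 787 CPM in caerulein and LPS replicates 56, 57 and 59, against 734, 670 and 717 CPM in saline replicates 43, 44 and 45, so replicate 56 exceeded the highest saline library only slightly.

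**Figure D2:**
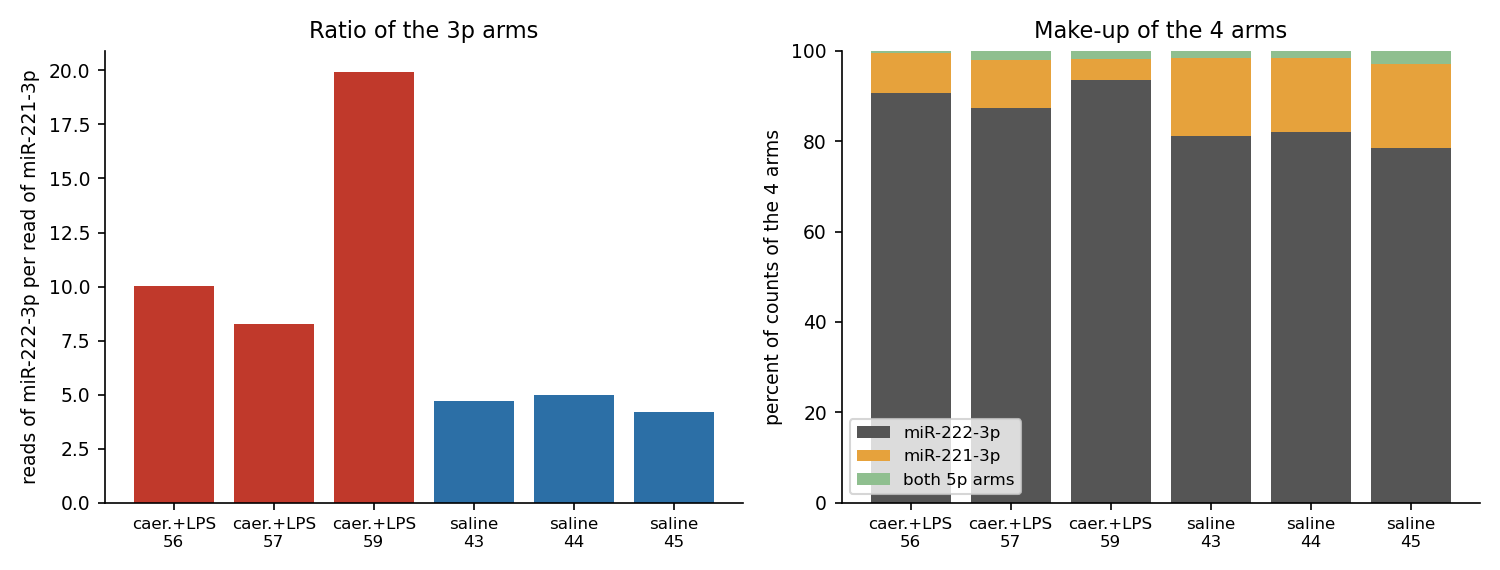
Left, reads of miR-222-3p per read of miR-221-3p (y axis from 0) in each library, caerulein and LPS in red and saline in blue; right, percent of the 4 arms' counts from miR-222-3p (grey), miR-221-3p (orange) and both 5p arms (green). The caerulein and LPS bars on the left run from 8.25 to 19.9 and the saline bars from 4.18 to 4.99.

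The same ratio was then fitted with limma for 62 pairs of hairpins that neighbour each other on one strand within 10 kb, each represented by its most abundant tested arm; this fit was added after the ratio had been seen. Of 280 hairpins with a tested arm, 61 were left out because that arm's sequence lies in several hairpins, and a pair joins the nearest of those kept. Pairs that share a hairpin are not independent. The miR-221-3p and miR-222-3p pair had a difference of -1.35 (SE 0.37, limma adjusted p = 0.144, unadjusted p = 0.0094), and 0 of the 62 pairs passed at 0.05 while 12 had an unadjusted p under 0.05. Its difference was the 9th in size, with a median of 0.42 and a highest value of 2.59 over all pairs. Groups failed to overlap in 30.6% of the pairs, this one included. On chromosome X as well, the ratio of miR-503-5p to its neighbour miR-322-5p differed by 1.52 (SE 0.49, limma adjusted p = 0.144); this pair was named after its value was seen.

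**Figure D3:**
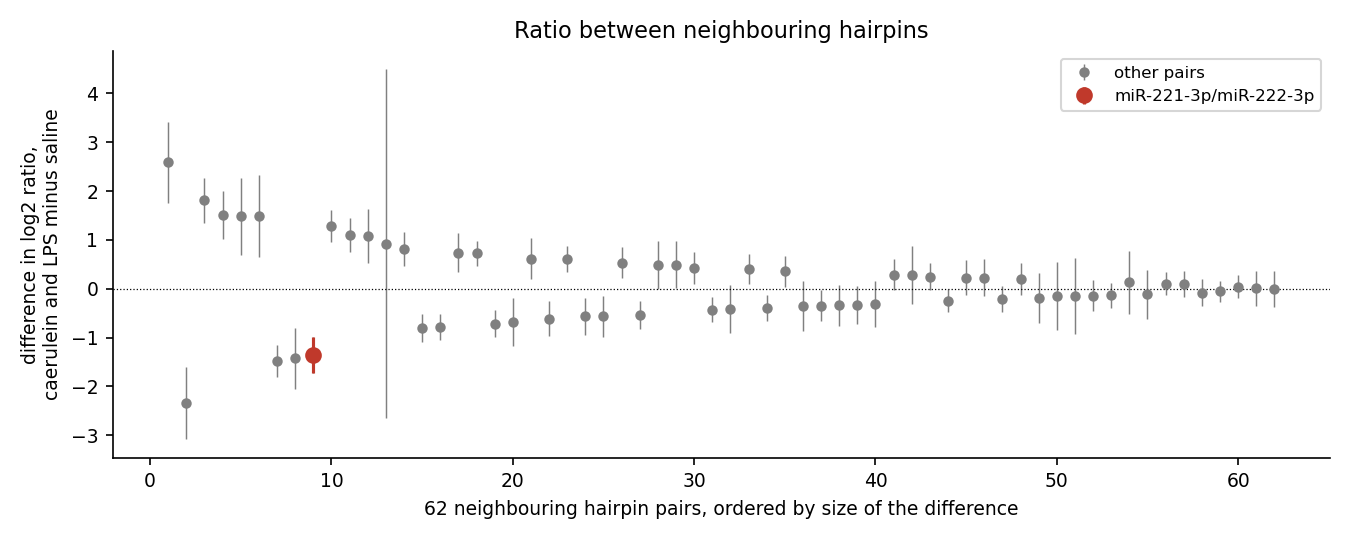
Difference in the log2 ratio between neighbouring hairpins, caerulein and LPS minus saline (y axis, bars are the SE from limma), for 62 pairs ordered by the size of the difference. The miR-221-3p/miR-222-3p pair (red) is 9th, at -1.35; the sign depends on which hairpin of a pair stands on top of the ratio.

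Strand use within each hairpin was compared as log2 (3p + 1)/(5p + 1) of the counts. In miR-221 the 3p arm outnumbered the 5p arm 22.8, 5.09 and 2.80 times in caerulein and LPS replicates 56, 57 and 59, against 10.4, 11.5 and 6.60 times in saline replicates 43, 44 and 45. The caerulein and LPS libraries lay on both sides of the saline range. The log2 ratio averaged 2.71 ± 1.48 in caerulein and LPS libraries and 3.16 ± 0.42 in saline libraries (SD, n = 3 each), a difference of -0.45 (SE 0.71, limma adjusted p = 0.881 over 125 hairpins, of which 0.800% were called). It was -1.26 without caerulein and LPS replicate 56 and 0.18 without replicate 59, so its direction rests on single libraries. In miR-222 the 5p arm was too scarce for that fit: the log2 ratio was 10.4 ± 0.38 in caerulein and LPS libraries and 9.57 ± 0.38 in saline libraries (SD, n = 3 each; two-sided exact permutation p = 0.1, and 0.3 with 0.5 added in place of 1), and with 0 to 2 reads of the 5p arm the ratio mainly follows the level of the 3p arm.

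What each arm did across the groups depended on how libraries were scaled. The authors' RPM values divide counts by library totals of 22055639 to 24325566 in the caerulein and LPS group and 27093090 to 27876715 in the saline group, far larger than the table's own totals. In these RPM values miR-222-3p had 75.1, 150 and 103 in caerulein and LPS replicates 56, 57 and 59, against 56.4, 42.1 and 35.6 in saline replicates 43, 44 and 45. The groups were apart, as they were in the upward direction for 49.5% of all rows on that scale. With those totals in the edgeR fit, miR-222-3p was 2.45-fold higher (log2 fold change 1.29, SE 0.39, edgeR adjusted p = 0.0252), among 24.1% of rows called higher. The log2 fold change was 0.093 for miR-221-3p and 0.85 for miR-221-5p on that scale (edgeR adjusted p = 0.861 and 0.325), both of opposite sign to their TMM values. The median over all rows was 0.79 with these totals, 0.29 with total counts alone and -0.29 with upper quartile factors, against 0.005 with TMM. Relative to that median, miR-222-3p was at 0.48 with TMM, 0.48 with RLE factors, 0.49 with total counts, 0.48 with upper quartile factors and 0.50 with the authors' totals. For miR-221-3p the values relative to the median ran from -0.74 to -0.70 over the same 5 scalings, and for miR-221-5p from -0.10 to 0.061. A change of scaling shifts all rows by nearly the same amount. The agreement of values relative to the median therefore follows from the calculation and is no separate result.

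**Figure D4:**
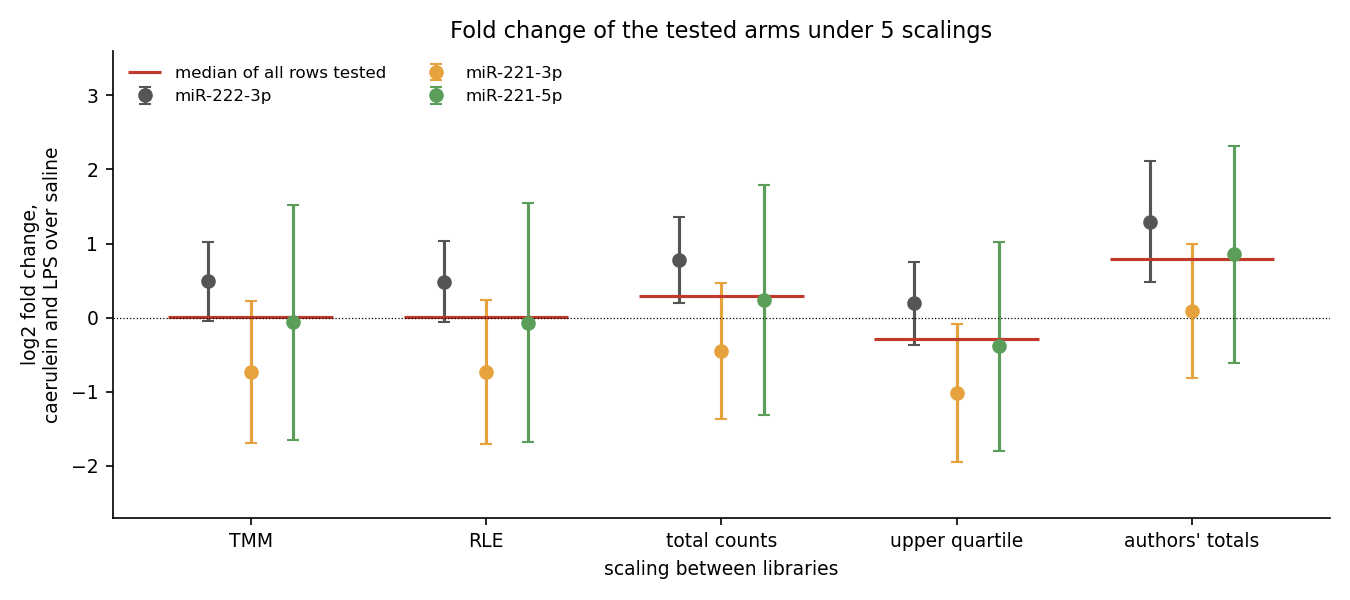
Log2 fold change of caerulein and LPS over saline (y axis) for miR-222-3p (grey), miR-221-3p (orange) and miR-221-5p (green) under 5 scalings between libraries (x axis), with 95% intervals from edgeR, and the median of all rows tested (red lines). The arms move up and down with the red line, which runs from -0.29 with upper quartile factors to 0.79 with the authors' totals.

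The rows most like each 3p arm across the 6 libraries were taken as the 5 with the highest Pearson correlation of log2 CPM, as a description. Those closest to miR-222-3p were miR-155-5p, a miRNA of activated macrophages and lymphocytes (r = 0.956), miR-146b-5p (r = 0.947), a predicted row (r = 0.946), miR-146a-5p (r = 0.930) and miR-125a-3p (r = 0.927). miR-146a and miR-146b are NF-kB targets that dampen Toll-like receptor signalling. miR-155-5p had 377, 1541 and 800 CPM in caerulein and LPS replicates 56, 57 and 59, against 172, 82.2 and 107 CPM in saline replicates 43, 44 and 45. Replicate 57 was the highest and replicate 56 the lowest of the treated libraries, the order that miR-222-3p also had. The log2 fold change was 2.91 for miR-155-5p, 1.36 for miR-146b-5p and 0.73 for miR-146a-5p (edgeR adjusted p = 0.0564, 0.0774 and 0.246), so miR-222-3p varied over a smaller range than these. The correlations run over 6 libraries in 2 groups and share the scaling factor of each library.

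Closest to miR-221-3p were other rows: miR-493-5p (r = 0.977), miR-466i-5p (r = 0.961), miR-541-5p (r = 0.960) and 2 predicted rows (r = 0.945 and 0.909). miR-493 and miR-541 belong to the imprinted Dlk1-Dio3 cluster. miR-541-5p had 20.4, 32.2 and 13.7 CPM in caerulein and LPS replicates 56, 57 and 59, against 43.9, 34.5 and 53.3 CPM in saline replicates 43, 44 and 45. Replicate 59 was the lowest library for this row, for miR-493-5p and for miR-221-3p. In that library miR-493-5p, at 0.597 CPM, lay under the floor of 0.896 CPM, and miR-466i-5p and the less correlated predicted row were at it, so their likeness to miR-221-3p rests partly on values at or below 3 counts. The log2 fold changes of the 5 rows were negative, from -1.70 for miR-493-5p to -0.49 for one of the predicted rows (edgeR adjusted p = 0.201 and 0.529), and 0 of them passed. The top 5 rows of the 2 arms had 0 in common. This follows from the correlation between both 3p arms themselves, r = -0.20 over the 6 libraries, and is no separate result. Within the caerulein and LPS libraries alone that correlation was 0.73.

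**Figure D5:**
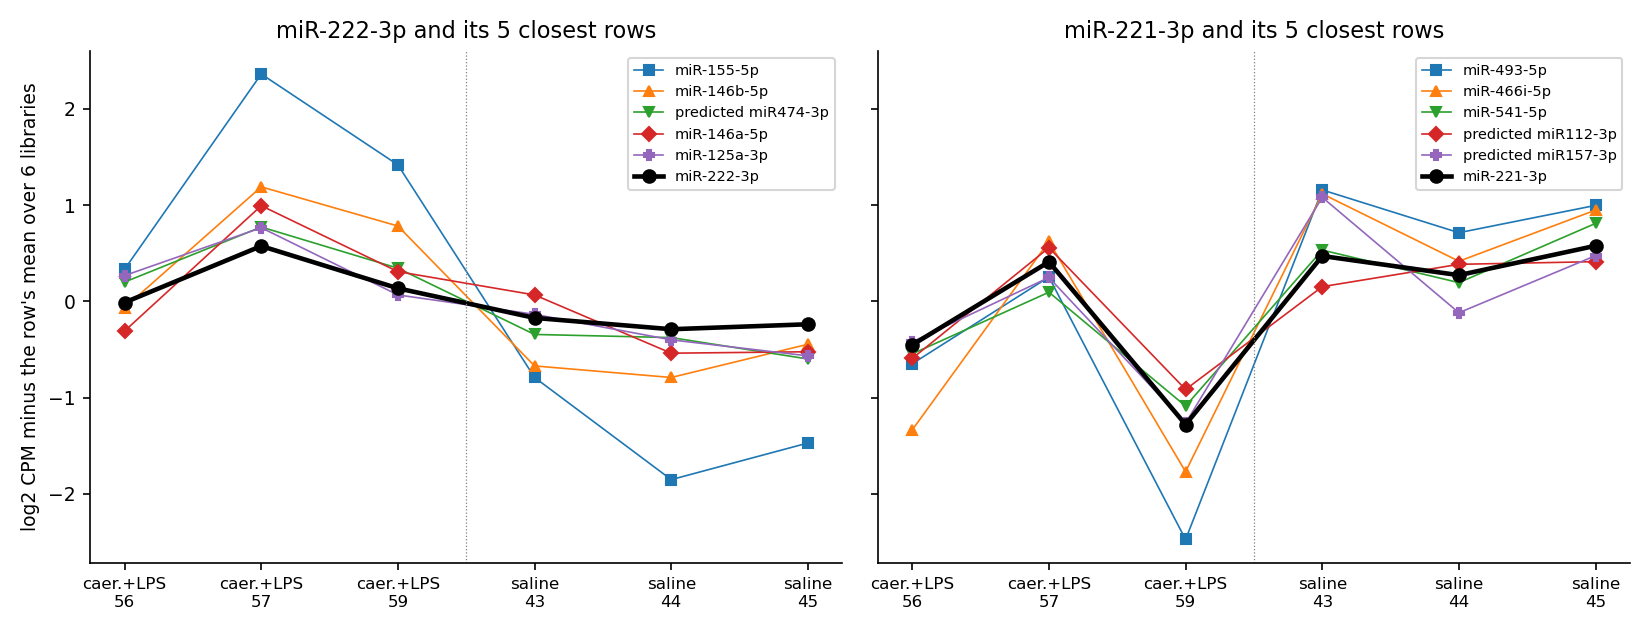
Log2 CPM minus each row's mean over the 6 libraries (y axis) for miR-222-3p and its 5 closest rows (left) and for miR-221-3p and its 5 closest rows (right), by library (x axis; lines join the libraries of one row only to guide the eye). miR-222-3p and its rows peak in caerulein and LPS replicate 57, while miR-221-3p and its rows are lowest in replicate 59.

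Tissue make-up was followed through marker miRNAs, since in whole pancreas fewer cells of a type and less RNA per cell cannot be told apart. All 5 leukocyte markers were tested and 1 was called higher, where 1.00% of all rows were. This was miR-223-3p, a myeloid miRNA (log2 fold change 2.75, edgeR adjusted p = 0.0077). The summed level was 5329 to 11459 CPM in caerulein and LPS libraries and 4588 to 6861 CPM in saline libraries. Log2 fold changes were positive for 4 of 5, with a median of 1.45, against 0.005 over all rows. That median was the value of miR-142a-3p (edgeR adjusted p = 0.111). The negative one, miR-150-5p, was the most abundant of the 5 (log2 fold change -0.35, edgeR adjusted p = 0.735). The 2 endothelial markers, both arms of miR-126a, summed to 32192 to 37849 CPM in caerulein and LPS libraries and 40543 to 47660 CPM in saline libraries. The log2 fold change was -0.36 for the more abundant miR-126a-3p and 0.12 for miR-126a-5p (edgeR adjusted p = 0.157 and 0.753). Smooth muscle markers (miR-143 and miR-145a arms, 3 of 4 tested) summed to 15989 to 19544 CPM in caerulein and LPS libraries and 16546 to 26381 CPM in saline libraries. The most abundant, miR-143-3p, had a log2 fold change of -0.26, miR-145a-3p -0.13 and miR-145a-5p 0.59 (edgeR adjusted p = 0.537, 0.834 and 0.175). The 4 fibroblast and stellate markers, arms of miR-199 and miR-214, summed to 1542 to 1621 CPM in caerulein and LPS libraries and 1716 to 1884 CPM in saline libraries. Their log2 fold changes were positive for 2 and negative for 2. The most abundant, miR-199a-5p, was at -0.46 and miR-199a-3p at 0.49 (edgeR adjusted p = 0.259 and 0.238). The 4 erythroid markers, such as miR-451a, summed to 7106 to 12091 CPM in caerulein and LPS libraries and 10646 to 13626 CPM in saline libraries. The 3 islet markers, led by miR-375-3p, summed to 39045 to 52236 CPM in caerulein and LPS libraries and 59229 to 81154 CPM in saline libraries. Their log2 fold changes were -0.73 for miR-375-3p, -0.71 for miR-184-3p and 0.005 for miR-7a-5p (edgeR adjusted p = 0.0611, 0.218 and 0.992). The 4 acinar markers, whose sums stand with the check of the pancreas label, all had negative log2 fold changes. These were -0.55 for miR-148a-3p, -0.41 for miR-216a-5p, -0.48 for miR-216b-5p and -0.50 for miR-217-5p (edgeR adjusted p = 0.238, 0.219, 0.0995 and 0.659). A sum mainly follows its most abundant member and need not show what the others did. No marker was at 0 in all libraries, and the part of these cells in the levels of the 4 arms was not tested.

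Other miRNAs linked to proliferation gave mostly positive values. Of the 20 members of that list 18 were tested. Among them 1 was called higher and 0 lower, where 1.00% of all rows were called higher and 0.200% lower. Positive log2 fold changes were found for 15 and the median was 0.51, against 0.005 over all rows. Members are not independent, since several belong to the miR-17 to miR-92a cluster. This list, like the marker lists and the vessel wall list, was chosen with earlier results of these data known. The number of positive members and the median are therefore a description and no separate result. miR-155-5p is also among the leukocyte markers, and a link to proliferation was not tested. The call was miR-18a-5p of the miR-17 to miR-92a cluster (log2 fold change 1.88, edgeR adjusted p = 0.0077). The most abundant members were miR-21a-5p at 0.77, miR-24-3p at 0.48 and miR-23a-3p at -0.22 on the log2 fold change scale (edgeR adjusted p = 0.0564, 0.102 and 0.558). With 0.49, miR-222-3p lay near the list's median, and miR-221-3p, with -0.73, lay on the other side of 0.

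Among 16 miRNAs of the vessel wall 15 were tested and 0 were called, where 1.20% of all rows were called. Of these 7 had positive and 8 negative log2 fold changes, with a median of -0.13, against 0.005 over all rows. Endothelial miR-126a-3p was at -0.36, miR-99a-5p at -0.52 and smooth muscle miR-143-3p at -0.26 (edgeR adjusted p = 0.157, 0.0802 and 0.537). Besides the cluster, 35 of 86 known rows on chromosome X with distinct sequences were tested. Of the 35, 1 was called higher and 0 lower, where 1.00% of all rows were called higher and 0.200% lower. Positive values were found for 23, with a median log2 fold change of 0.34, against 0.005 over all rows. The call was again miR-223-3p, and the most abundant of these rows were miR-652-3p at 0.36, miR-676-3p at -0.44 and miR-98-5p at 9.4e-04 (edgeR adjusted p = 0.303, 0.240 and 0.996).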

How the data were processed

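Gel-purified RNA 18 to 30 nt long was ligated to adapters with unique molecular identifiers, per the labels' protocols. Bowtie2 and GRCm38.p6 are named without a role or version in the submitters' processing notes. The deposited table gives whole-number read counts per mature arm, per the file headers, and RPM values made by the authors from the same counts; whether counts were collapsed on molecular identifiers, and what the RPM totals count, are not given in the sources used here. Those totals were recovered as the median ratio of count to RPM over rows of at least 100 counts. Adapter ligation favours some miRNAs, so levels of different arms compare only roughly; whether that bias was equal across libraries was not tested.

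Groups were read from sample titles. Counts of all rows were fitted with edgeR 4.0.16 in R 4.3.3: filterByExpr (minimum count 10, minimum total 15), TMM factors, robust dispersions and the two-sided quasi-likelihood test, adjusted by Benjamini and Hochberg over 499 rows with a threshold of 0.05. The SE of a fold change is its size over the square root of the F statistic. Arm ratios and neighbouring pairs whose both sides averaged 10 counts or more were fitted with limma 3.58.1. Two-sided exact permutation was run on both arm ratios, the ratio of miR-221-3p to miR-222-3p and the summed share. DESeq2 1.42.0, other scalings and filters, repeated sequences kept once and leaving out each library were alternatives. The fits were tested on simulated data with changes larger than those of the cluster's arms. That test therefore does not show what was detectable for these arms. Replicates were compared before averaging: the chi-square per degree of freedom was 98.7 to 265 within groups, so no library copied another.

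The rule for rows named beside the 4 arms took rows with the same seed, the 5 closest rows by correlation of log2 CPM (prior count 2), neighbours in abundance, and the called and 3 most abundant members of each list; miR-503-5p with miR-322-5p falls outside it. The members and lists were chosen with earlier results of these data known. The fit over neighbouring hairpins and edgeR's newer dispersion method were added after seeing the data.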

Additional observations from a re-analysis of the deposited data

How the results depend on the processing

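No paired analysis was possible because the groups share 0 replicate numbers. The number of rows called, 6 (5 higher and 1 lower), was 15 with RLE factors (7 and 8), 18 with total counts alone (17 and 1), 45 with upper quartile factors (6 and 39), 123 with the authors' totals (121 and 2), 58 without a filter on low counts (23 and 35) and 33 with DESeq2 (17 and 16), and 3 to 10 when 1 library was left out. The log2 fold change of miR-222-3p was positive under all alternatives run and was called with the authors' totals (1.29) but not under the others. Leaving out 1 library gave 0.33 to 0.65, where the sign could hardly turn because the groups did not overlap. For miR-221-3p the log2 fold change turned to 0.093 with the authors' totals and was -1.24 to -0.37 with 1 library left out. For miR-221-5p the sign turned with total counts alone (0.24), the authors' totals (0.85) and the newer dispersion method (0.039), and leaving out 1 library gave -0.75 to 0.44. The miR-221 arm ratio ran from -1.26 to 0.18 with 1 library left out. The difference in the summed share of counts was 0.0348 percentage points, and 0.00664 as a share of the authors' totals. Those totals are a larger denominator, so these values do not compare in size. With 1 library left out the difference in the share of counts ran from 0.0217 to 0.0444. The difference in the log2 ratio of miR-221-3p to miR-222-3p ran from -1.61 to -0.98 with 1 library left out. The signs of this ratio and of the share could not turn there, because the groups did not overlap in either. The ratio does not depend on scaling. The causes were not tested. Depth limits the 5p arms most, with 8 to 79 counts of miR-221-5p and 0 to 2 of miR-222-5p per library.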
